A study of Sus scrofa with 6 samples.

Results

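The constitutive proteasome was described in the longissimus dorsi (LD), the long muscle of the back, of 6 Nanyang black pigs. Its genes were taken from a list of 41 symbols that names the subunits of the 20S core and the 19S cap and the factors that assemble them. Symbols were matched in the deposited table of 25878 genes, and 5 of them (PSMA1, PSMA2, PSMA5, PSMD4 and PSMD9) were found by gene ID where the symbol was blank. In all, 36 of 41 genes were found: 7 of 7 alpha and 6 of 7 beta subunits of the core, 6 of 6 ATPase and 12 of 13 non-ATPase subunits of the cap, 3 of 3 assembly chaperones of the cap and 2 of 5 assembly factors of the core. PSMB5, SEM1, PSMG1, PSMG2 and PSMG4 were not analysed here.

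The proteasome is the protease complex that degrades proteins tagged with ubiquitin. Its 20S core is a barrel of stacked rings: the outer rings of alpha subunits gate the entrance, and the inner rings of beta subunits carry the active sites inside. The 19S cap sits on the core, binds and strips the ubiquitin chains with its non-ATPase subunits, and unfolds and threads the substrate with a ring of ATPases. In skeletal muscle the ubiquitin-proteasome pathway turns over contractile proteins and is well known for its part in muscle wasting. The roles named here are those known from the human and yeast proteins.

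The HF group held 3 pigs with high lipid deposition (HF01, HF02 and HF03) and the LF group 3 pigs with low lipid deposition (LF01, LF02 and LF03), all Nanyang black pigs and 180 days old by the labels, with 1 RNA-seq library per pig. By the methods, backfat was measured on sibling females of a shared pen. The paper chose the pigs on backfat together with intramuscular fat, stained fat in muscle slices and total fatty acids. The groups thus differ in lipid deposition by selection among related animals and received no different treatment. Levels are FPKM, fragments per kilobase of transcript scaled to the mapped fragments of the library, which allows genes to be compared per length. Groups were compared with limma on log2(FPKM + 0.1) over the 11136 genes that averaged at least 0.5 FPKM, and p-values were adjusted over all of them by the Benjamini-Hochberg method. The pseudocount shrinks fold changes of genes with low FPKM.

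All libraries carried muscle: the 14 skeletal muscle fibre markers found, of 16 looked for, summed to 34810 to 65295 FPKM in HF and 56252 to 86092 FPKM in LF. ACTA1, the skeletal muscle actin, was listed at 0 in HF01 and HF03, and mitochondrial COX1 was listed at 0 in LF02. LF02 also stood apart in the share of its FPKM taken by the most abundant gene, 7.00%, against 20.6% to 36.4% in the other 5 libraries. Between 14569 and 15336 genes were above 0 in each library. Some markers of other cells were higher in HF, but of the marker sums only that of Schwann cells did not overlap between the groups. Summed fibroblast markers ranged from 296 to 788 FPKM in HF and from 277 to 334 FPKM in LF (in 4 of 8 the 3 HF pigs were above the 3 LF pigs), smooth muscle and pericyte markers from 190 to 398 FPKM in HF and from 99.5 to 200 FPKM in LF (2 of 7), and Schwann cell markers from 39.0 to 86.8 FPKM in HF and from 17.98 to 26.5 FPKM in LF (5 of 5 found). Over all tested genes, 1428 of 11136 had every HF pig above every LF pig. No marker of the fibroblast, smooth muscle and pericyte, or Schwann cell lists was at 0 in any pig. Adipocyte markers summed to 108 to 243 FPKM in HF and 119 to 223 FPKM in LF, and 1 of 8 had every HF pig above every LF pig. No endothelium, macrophage, lymphocyte or red blood cell marker did. The part of other cells in the proteasome values was not tested. In whole muscle, fewer cells of a type and less RNA per cell cannot be told apart.

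Proteasome genes had lower levels in HF than in LF muscle, about 2 times lower in both core and cap, although no single gene passed the adjusted threshold. All 36 genes passed the filter, none was listed at 0 in any pig, and all 36 had a negative log2 fold change, HF over LF, while 5785 of all 11136 tested genes did. Their median log2 fold change was -1.02, against -0.03 over all tested genes, and ranged from -1.43 for PSMC1 to -0.25 for PSMD10. The ratio of the HF mean to the LF mean had a median of 0.486 and lay between 0.357 and 0.830, and it was under 0.5 for 22 genes.

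At an adjusted p under 0.05 in limma 0 of 36 genes were called, a threshold at which 4 of all tested genes (0.0359%) were called lower in HF. At an unadjusted p under 0.05, 33 of 36 were lower and none higher, against 13.8% of all tested genes lower. At an adjusted p under 0.10, 24 of 36 were lower, against 3.49% of all tested genes. That count was 0 with no filter on low values, with the replicate block and without HF02, HF03, LF01 or LF03. It was 1 (PSMD4) without HF01. The share over all tested genes was also small in these fits, from 0.00896% (without LF01) to 0.422% (without HF01). In 34 of 36 genes every HF pig was below every LF pig, which held for 17.1% of all tested genes. Genes of higher level separated more often, so the share was also taken among genes averaging at least 5 FPKM, where it was 33 of 34 proteasome genes and 27.0% of all. With 3 pigs in each group, 0.1 is the smallest p an exact permutation test allows. The count of calls turned on LF02: without it, 11 proteasome genes were lower at an adjusted p under 0.05 (PSMA1, PSMA4, PSMA5, PSMA6, PSMB1, PSMB4, PSMD2, PSMD4, PSMD6, PSMD7 and ADRM1), against 1.11% of all genes tested in that fit, 124 of 11157. In all 36 every HF pig lay below the other LF pigs, which held for 27.7% of all genes tested without LF02.

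**Figure D1:**
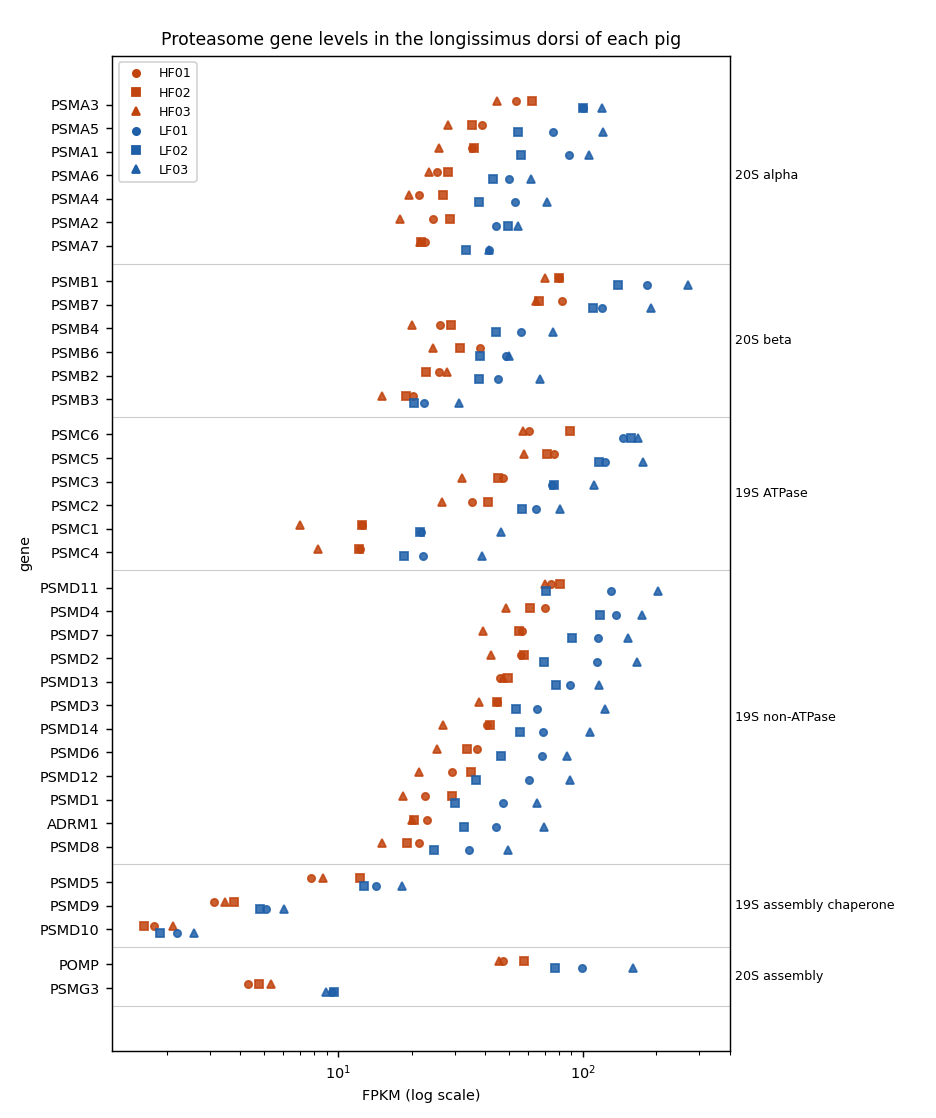
FPKM (log scale) of the 36 proteasome genes in each pig, by role; HF pigs in red above LF pigs in blue, 1 point per pig. In 34 genes the 3 HF points lie left of all 3 LF points, the exceptions being PSMD11 and PSMD10; LF03 is the rightmost point in 34 genes and HF03 the leftmost in 30.

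The alpha subunits form the outer rings of the core. All 7 had every HF pig below every LF pig, with a median log2 fold change of -1.08 and adjusted p from 0.081 to 0.090 in limma. PSMA3 was the most abundant and measured 53.3, 61.9 and 44.8 FPKM in HF01 to HF03, against 100.3, 100.5 and 120.5 FPKM in LF01 to LF03. The highest HF pig was well below the lowest LF pig, and the log2 fold change was -1.01 ± 0.21 (SE, adjusted p = 0.0808). PSMA6 measured 25.3, 28.2 and 23.5 FPKM in HF01 to HF03, against 49.8, 43.1 and 61.3 FPKM in LF01 to LF03, and its HF values were close to each other. PSMA1, which had the largest difference of the ring, measured 35.4, 35.9 and 25.8 FPKM in HF01 to HF03, against 87.9, 55.8 and 106 FPKM in LF01 to LF03, a log2 fold change of -1.33 ± 0.28 (SE, adjusted p = 0.0808). LF02 was the lowest of the LF pigs for PSMA1 and still above each HF pig. PSMA7 was the least abundant and measured 22.8, 21.8 and 21.7 FPKM in HF01 to HF03, against 41.6, 33.2 and 41.5 FPKM in LF01 to LF03. Its HF values barely spread, and its log2 fold change of -0.80 was the smallest of the ring. PSMA2, PSMA4 and PSMA5 lay between, with log2 fold changes of -1.08, -1.22 and -1.22.

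The beta subunits include the active sites and the structural subunits around them. All 6 found had every HF pig below every LF pig, with a median log2 fold change of -0.93 and the widest range of the core, from -1.31 to -0.43. The structural subunit PSMB1 was the most abundant gene of the proteasome and measured 79.9, 80.3 and 70.3 FPKM in HF01 to HF03, against 184, 139 and 269 FPKM in LF01 to LF03. LF03 was far above the other LF pigs, the HF pigs lay close together, and the log2 fold change was -1.31 ± 0.26 (SE, adjusted p = 0.0808). PSMB4, another structural subunit, measured 26.2, 28.9 and 20.1 FPKM in HF01 to HF03, against 55.9, 44.4 and 75.8 FPKM in LF01 to LF03, a log2 fold change of -1.21 ± 0.25 (SE, adjusted p = 0.0808). PSMB2, also structural, measured 25.9, 22.9 and 27.9 FPKM in HF01 to HF03, against 45.1, 37.9 and 66.8 FPKM in LF01 to LF03. Its groups did not overlap, and its log2 fold change was -0.93 ± 0.25 (SE, adjusted p = 0.0966). The catalytic subunits in the table were PSMB6, which carries the caspase-like activity, and PSMB7, which carries the trypsin-like activity. PSMB7 averaged 71.0 ± 9.77 FPKM in HF and 139.8 ± 43.4 FPKM in LF (SD, n = 3 each) and had a log2 fold change of -0.94 ± 0.25 (SE, adjusted p = 0.0982). PSMB6 averaged 31.4 ± 6.75 FPKM in HF and 45.7 ± 6.51 FPKM in LF (SD, n = 3 each) and had a log2 fold change of -0.55 ± 0.23 (SE, adjusted p = 0.183), with HF01 at 38.0 FPKM just under LF02 at 38.2 FPKM. The structural PSMB3 had the smallest difference of the core and measured 20.3, 18.98 and 15.1 FPKM in HF01 to HF03, against 22.5, 20.4 and 31.3 FPKM in LF01 to LF03. HF01 and LF02 nearly met, and the limma interval of the log2 fold change ran from -0.96 to 0.10.

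The ATPases form the ring that unfolds the substrate. In all 6 the HF pigs lay below the LF pigs, with an adjusted p from 0.078 to 0.090 in limma, and the median log2 fold change was -1.14, the most negative of the roles. PSMC6 was the most abundant and measured 60.5, 89.0 and 56.9 FPKM in HF01 to HF03, against 146, 158 and 168 FPKM in LF01 to LF03. Its HF pigs differed more from each other than its LF pigs, and its log2 fold change was -1.22 ± 0.23 (SE, adjusted p = 0.0778). PSMC5 measured 76.4, 71.4 and 57.6 FPKM in HF01 to HF03, against 124, 117 and 177 FPKM in LF01 to LF03, a log2 fold change of -1.01 ± 0.23 (SE, adjusted p = 0.0893). PSMC3 measured 47.5, 45.0 and 32.1 FPKM in HF01 to HF03, against 74.7, 76.2 and 111 FPKM in LF01 to LF03, a log2 fold change of -1.07 ± 0.25 (SE, adjusted p = 0.0893). For both, HF03 was the lowest and LF03 the highest of the 6 pigs. PSMC1 and PSMC4 were far less abundant than the other ATPases. PSMC4 measured 12.3, 12.3 and 8.31 FPKM in HF01 to HF03, against 22.4, 18.7 and 38.9 FPKM in LF01 to LF03, a log2 fold change of -1.22 ± 0.30 (SE, adjusted p = 0.0899). PSMC1 measured 12.6, 12.5 and 7.01 FPKM in HF01 to HF03, against 21.9, 21.6 and 46.5 FPKM in LF01 to LF03, a log2 fold change of -1.43 ± 0.36 (SE, adjusted p = 0.0899), the largest of all 36 genes. PSMC2 averaged 34.3 ± 7.14 FPKM in HF and 67.3 ± 12.3 FPKM in LF (SD, n = 3 each) and had a log2 fold change of -0.98.

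The non-ATPase subunits bind ubiquitin chains, remove them and hold the cap on the core. In 11 of 12 every HF pig was below every LF pig, the median log2 fold change was -1.04, and 5 had an adjusted p under 0.10 in limma. PSMD4, a ubiquitin receptor, measured 70.3, 61.1 and 48.7 FPKM in HF01 to HF03, against 137, 118 and 174 FPKM in LF01 to LF03. The highest HF pig stood at 70.3 FPKM and the lowest LF pig at 118 FPKM, and the log2 fold change was -1.25 ± 0.23 (SE, adjusted p = 0.0778). The other receptor, ADRM1, averaged 21.2 ± 1.74 FPKM in HF and 48.9 ± 18.8 FPKM in LF (SD, n = 3 each) and had a log2 fold change of -1.13 ± 0.28 (SE, adjusted p = 0.0899). PSMD14 is the metalloprotease that cuts chains off the substrate, and it averaged 36.5 ± 8.31 FPKM in HF and 77.1 ± 26.6 FPKM in LF (SD, n = 3 each) and had a log2 fold change of -1.05 ± 0.29 (SE, adjusted p = 0.101). Its partner in the same dimer, PSMD7, measured 56.4, 55.1 and 39.2 FPKM in HF01 to HF03, against 115, 90.3 and 152 FPKM in LF01 to LF03, a log2 fold change of -1.23 ± 0.26 (SE, adjusted p = 0.0808). The lid subunit PSMD13 measured 46.1, 49.7 and 47.3 FPKM in HF01 to HF03, against 89.1, 78.0 and 117 FPKM in LF01 to LF03. Its HF pigs agreed closely, with an SD of 1.81 FPKM, against 20.1 FPKM in LF.

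PSMD1 and PSMD2 are the large scaffold subunits of the base. PSMD1 averaged 23.5 ± 5.43 FPKM in HF and 47.5 ± 17.4 FPKM in LF (SD, n = 3 each), with -0.97 ± 0.31 (SE, adjusted p = 0.12) as its log2 fold change in limma. PSMD2, where shuttle factors also dock, averaged 51.9 ± 8.58 FPKM in HF and 117 ± 48.3 FPKM in LF (SD, n = 3 each), with -1.10 ± 0.32 (SE, adjusted p = 0.106). Lid subunits PSMD3, PSMD6, PSMD8 and PSMD12 had log2 fold changes of -0.83, -1.03, -0.92 and -1.05. The least abundant of these, PSMD8, measured 21.4, 19.1 and 15.1 FPKM in HF01 to HF03, against 34.2, 24.7 and 49.5 FPKM in LF01 to LF03. PSMD11, a lid subunit that contacts the alpha ring, was the most abundant non-ATPase gene and the only cap subunit whose groups overlapped. It measured 74.5, 81.0 and 70.4 FPKM in HF01 to HF03, against 131, 70.7 and 203 FPKM in LF01 to LF03. LF02 lay inside the HF range, and the log2 fold change was -0.71 ± 0.35 (SE, adjusted p = 0.248).

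**Figure D2:**
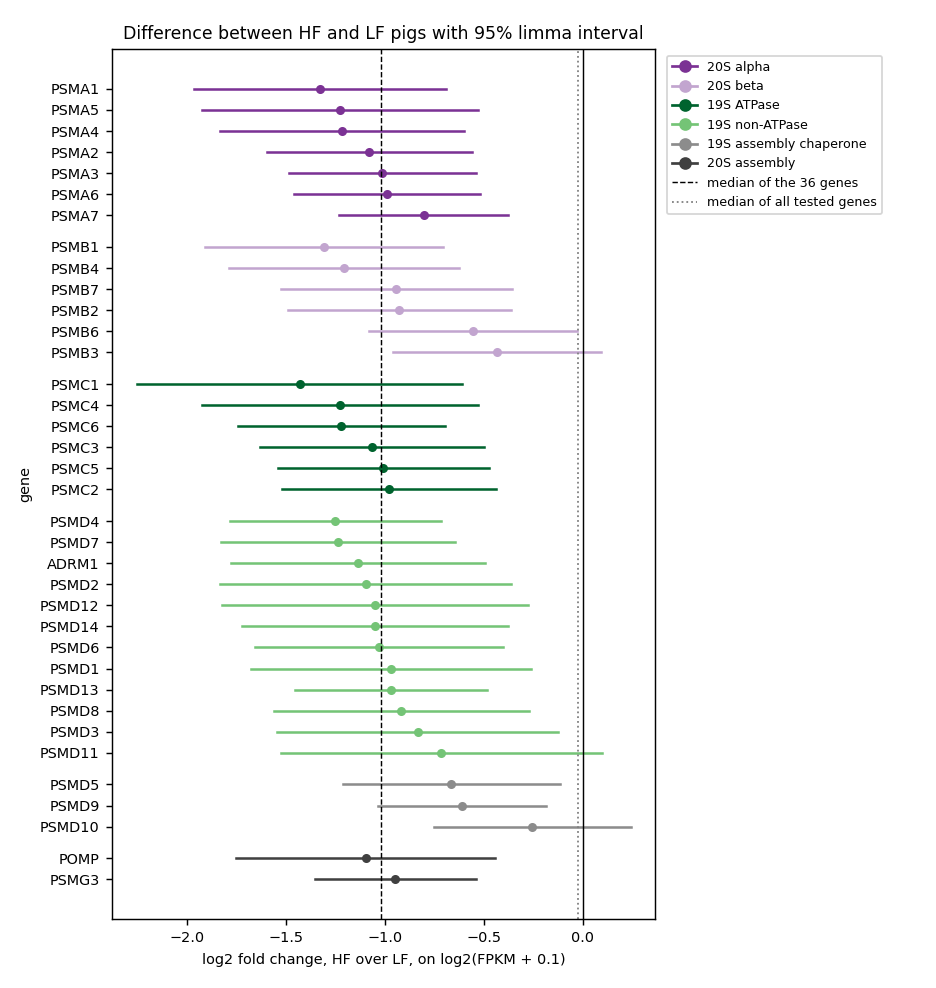
Log2 fold change, HF over LF, of each proteasome gene with its 95% limma interval, by role. All 36 points lie left of 0, the dashed median is at -1.02, and the intervals of PSMB3, PSMD11 and PSMD10 reach past 0.

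PSMD5, PSMD9 and PSMD10 are chaperones that hold ATPases while the cap is built, and they had the smallest median difference of the roles, a log2 fold change of -0.61, and no adjusted p under 0.10 in limma. PSMD9 measured 3.12, 3.77 and 3.46 FPKM in HF01 to HF03, against 5.11, 4.81 and 6.05 FPKM in LF01 to LF03, a log2 fold change of -0.61 ± 0.19 (SE, adjusted p = 0.112). PSMD5 measured 7.78, 12.3 and 8.70 FPKM in HF01 to HF03, against 14.3, 12.8 and 18.3 FPKM in LF01 to LF03, a log2 fold change of -0.66 ± 0.24 (SE, adjusted p = 0.145). HF02 was just under LF02 for PSMD5, and the other HF pigs were well below. PSMD10, also known as gankyrin, measured 1.78, 1.62 and 2.13 FPKM in HF01 to HF03, against 2.20, 1.89 and 2.58 FPKM in LF01 to LF03. HF03 lay above LF02, and the log2 fold change was -0.25 ± 0.22 (SE, adjusted p = 0.499). On the core side, POMP completes the maturation of the beta rings and measured 47.4, 57.8 and 45.6 FPKM in HF01 to HF03, against 99.3, 76.9 and 160.3 FPKM in LF01 to LF03. LF03 was well above the other pigs, and the log2 fold change was -1.10 ± 0.29 (SE, adjusted p = 0.0934). PSMG3, part of a chaperone of the alpha ring, measured 4.31, 4.77 and 5.36 FPKM in HF01 to HF03, against 9.46, 9.61 and 8.94 FPKM in LF01 to LF03. Both groups were tight, with an SD of 0.527 FPKM in HF and 0.354 FPKM in LF, and the log2 fold change was -0.95 ± 0.18 (SE, adjusted p = 0.0778). The difference between these 3 cap chaperones and the other roles was not tested.

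Core and cap were set side by side. The median log2 fold change was -1.01 over the 13 core genes and -1.05 over the 18 cap genes, a core minus cap difference of 0.04. Leaving out 1 pig at a time moved that difference between -0.096 (without LF03) and 0.154 (without LF02), so its sign depended on the pigs included. Within each pig, the mean log2 level of the core minus that of the cap was -0.14, -0.19 and -0.04 in HF01 to HF03, against -0.15, -0.08 and -0.32 in LF01 to LF03. The groups overlapped, and library scaling cancels in this quantity because both sides come from the same library. Alpha minus beta was -0.37, -0.15 and -0.33 in HF01 to HF03, against -0.03, -0.05 and -0.17 in LF01 to LF03, with HF02 and LF03 crossing. ATPase minus non-ATPase was -0.30, -0.22 and -0.41 in HF01 to HF03, against -0.33, 0.08 and -0.28 in LF01 to LF03, again overlapping.

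**Figure D3:**
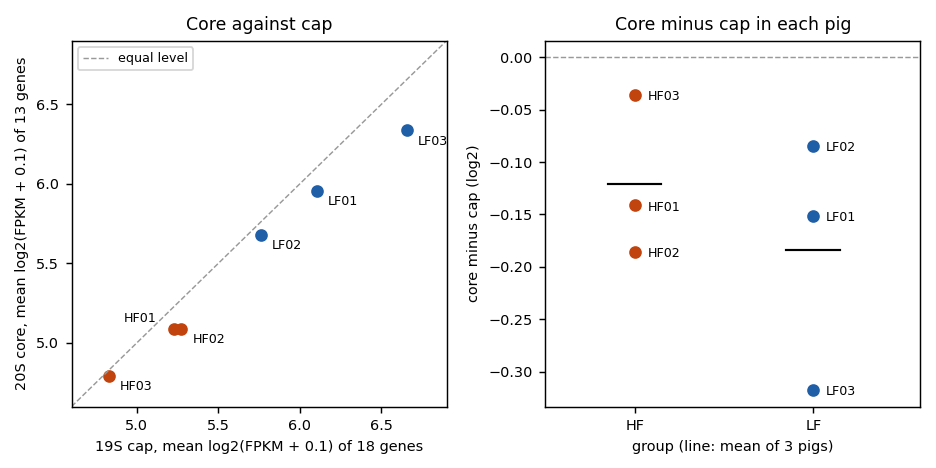
Left, mean log2(FPKM + 0.1) of the core (13 genes) against that of the cap (18 genes), 1 point per pig; right, core minus cap in each pig, HF then LF, with the group mean as a line. HF pigs lie lower on both axes than LF pigs, and core minus cap overlaps between the groups.

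The order of the genes by level was nearly the same in both groups. Across the 36 genes, Spearman's rho between the HF and the LF means was 0.974, across genes that share libraries and are not independent. The most abundant core gene was 4.24 times the least abundant in HF and 7.98 times in LF, and the corresponding ratios for the cap were 7.04 in HF and 5.90 in LF.

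The pigs within each group also differed together across the complex. For this view the LF mean of each gene was taken on log2(FPKM + 0.1). Relative to it, the median level over the 36 genes was 0.503, 0.537 and 0.415 in HF01 to HF03, against 0.965, 0.778 and 1.32 in LF01 to LF03. LF03 was the highest of the 6 pigs in 34 of 36 genes, while it was highest in 28.8% of all tested genes and in 38.4% of those averaging at least 5 FPKM. HF03 was the lowest in 30 of 36, against 14.6% of all tested genes and 23.2% of those averaging at least 5 FPKM. LF02 was the lowest of the LF pigs in 31 of 36, against 44.8% and 48.7%. The spread was wider in LF: its coefficient of variation was the larger in 29 of 36 genes, with a median of 16.7% in HF and 28.4% in LF. Over all tested genes LF had the larger coefficient in 5699 of 11136, and the medians were 19.5% in HF and 20.1% in LF.

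**Figure D4:**
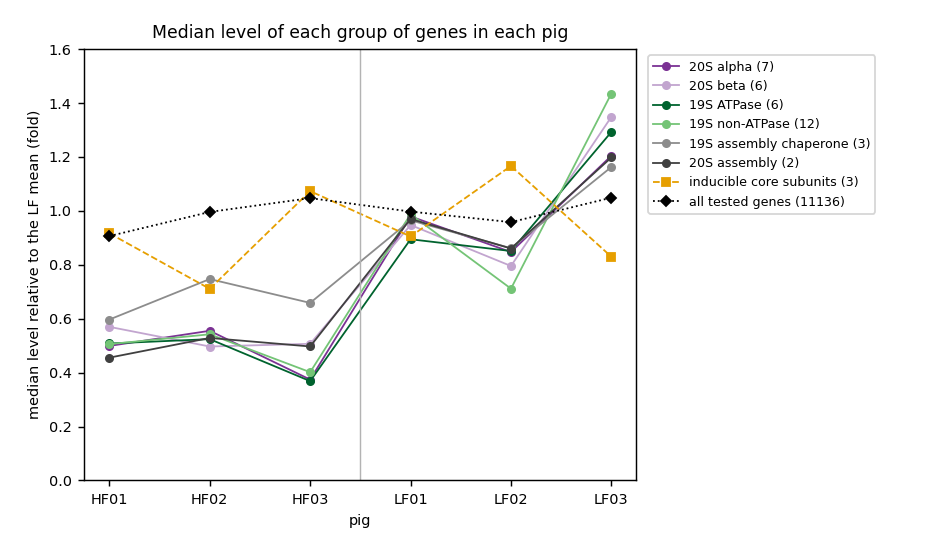
Median level of each role relative to the LF mean of each gene, per pig, HF pigs left of LF pigs; dashed, the inducible core subunits, and dotted, all tested genes. Core and cap roles run together, from 0.37 to 0.57 in HF pigs and up to 1.44 in LF03, while all tested genes stay between 0.91 and 1.05.

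The 36 genes lay on 15 chromosomes of Sscrofa11.1, so they did not share a region. The closest were PSMA7 (chr17:61562418-61571623) and ADRM1 (chr17:61692967-61698141), 121 kb apart, and PSMB4 (chr4:97831296-97838343) and PSMD4 (chr4:97994083-98004716), 156 kb apart. The span of 18 genes overlapped that of another listed gene, among them PSMC6 with ERO1A and STYX, PSMC5 with FTSJ3, PSMC3 with SLC39A13, PSMC1 with NRDE2, PSMB3 with PIP4K2B, PSMB4 with POGZ, PSMD13 with COX8H and PSMD10 with ATG4A, and reads there may be shared. The median log2 fold change was -1.06 for these and -0.98 for the 18 without an overlap, and in each set 17 genes had every HF pig below every LF pig.

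The inducible beta subunits replace PSMB6, PSMB7 and PSMB5 in the immunoproteasome, the form that makes peptides for antigen presentation. None of the 3 tested had an unadjusted p under 0.05 in limma, and each overlapped between the groups. PSMB8 measured 7.65, 5.91 and 8.97 FPKM in HF01 to HF03, against 6.96, 9.76 and 8.56 FPKM in LF01 to LF03, with a log2 fold change of -0.17 ± 0.23 (SE, adjusted p = 0.67). PSMB9 measured 2.11, 1.95 and 2.60 FPKM in HF01 to HF03, against 3.42, 3.22 and 2.49 FPKM in LF01 to LF03, with a log2 fold change of -0.44 ± 0.21 (SE, adjusted p = 0.244). PSMB10 measured 9.94, 5.28 and 7.88 FPKM in HF01 to HF03, against 5.61, 9.60 and 4.44 FPKM in LF01 to LF03, with a log2 fold change of 0.26 ± 0.33 (SE, adjusted p = 0.662). Each of these genes had lower FPKM than PSMB6 and PSMB7 in every pig, and the listed spans of PSMB8 and PSMB9 overlap. PSMB11 of the thymus and PSMA8 of the testis were listed at 0 in all 6 pigs. The difference between inducible and constitutive subunits in their response was not tested.

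Alternative caps and the inhibitor PSMF1 compete with or modify the 19S cap. All 5 were negative, the median log2 fold change was -0.47, and 1 had an unadjusted p under 0.05, where 13.8% of all tested genes were lower. PSME3, a nuclear activator, measured 11.3, 10.7 and 12.0 FPKM in HF01 to HF03, against 15.7, 12.96 and 18.98 FPKM in LF01 to LF03, a log2 fold change of -0.47 ± 0.20 (SE, adjusted p = 0.198). PSMF1 measured 17.7, 17.6 and 19.3 FPKM in HF01 to HF03, against 23.6, 21.5 and 37.0 FPKM in LF01 to LF03, and its groups did not overlap. PSME4, a large activator, measured 26.1, 37.9 and 23.5 FPKM in HF01 to HF03, against 59.5, 25.8 and 127 FPKM in LF01 to LF03, with LF02 inside the HF range and a log2 fold change of -1.02 ± 0.51 (SE, adjusted p = 0.252). Among the 14 cap-associated deubiquitinases, ligases and shuttle factors found, the median was -0.42 and 1 gene was lower by the same measure. That gene was ZFAND2A, an arsenite-inducible proteasome-associated protein, which measured 5.42, 3.40 and 2.68 FPKM in HF01 to HF03, against 12.9, 4.75 and 21.8 FPKM in LF01 to LF03. HF01 was above LF02, and the log2 fold change was -1.56 ± 0.51 (SE, adjusted p = 0.124). The thioredoxin-like TXNL1 had a log2 fold change of -0.57 ± 0.28 (SE, adjusted p = 0.246).

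VCP, the segregase that extracts ubiquitin-tagged proteins for the proteasome, measured 80.1, 80.4 and 62.9 FPKM in HF01 to HF03, against 131, 94.8 and 178 FPKM in LF01 to LF03. Its groups did not overlap, and the log2 fold change was -0.81 ± 0.26 (SE, adjusted p = 0.123). Of VCP and its cofactors, 8 genes in all, 4 were lower and 1 was higher by an unadjusted p under 0.05, against 13.8% of all tested genes lower and 11.0% higher. The median log2 fold change of the 8 was -0.63. NPLOC4, which with UFD1 recruits ubiquitin chains to VCP, had a log2 fold change of -0.98 ± 0.32 (SE, adjusted p = 0.124). The higher gene was UBXN7, an adaptor between VCP and ubiquitin ligases, which measured 2.51, 5.52 and 3.75 FPKM in HF01 to HF03, against 2.06, 1.73 and 1.95 FPKM in LF01 to LF03, a log2 fold change of 0.94 ± 0.29 (SE, adjusted p = 0.112). The 3 HF pigs were all above the 3 LF pigs for UBXN7. Among ubiquitin genes, the polyubiquitin gene UBB measured 699.5, 554 and 608 FPKM in HF01 to HF03, against 891, 819 and 949.8 FPKM in LF01 to LF03. Its log2 fold change was -0.52 ± 0.20 (SE, adjusted p = 0.163), without overlap between the groups. RPS27A, a fusion of ubiquitin with a ribosomal protein, had a log2 fold change of -0.72 ± 0.27 (SE, adjusted p = 0.153).

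Among 13 regulators of proteasome genes the median log2 fold change was -0.32, and 3 of them were lower by an unadjusted p under 0.05, against 13.8% of all tested genes. NFE2L1 is the transcription factor that raises proteasome genes when proteasome activity falls short. It measured 48.7, 54.4 and 49.5 FPKM in HF01 to HF03, against 87.3, 50.8 and 107 FPKM in LF01 to LF03. LF02 lay inside the HF range, and the log2 fold change was -0.62 ± 0.28 (SE, adjusted p = 0.218). NFE2L2, the related factor of the oxidative stress response, measured 26.1, 22.5 and 32.8 FPKM in HF01 to HF03, against 30.9, 22.9 and 53.5 FPKM in LF01 to LF03, with a log2 fold change of -0.32 ± 0.32 (SE, adjusted p = 0.562). The 3 genes below the unadjusted threshold were NFYB, a subunit of the CCAAT-binding factor, at -0.68 ± 0.24 (SE, adjusted p = 0.139), MAFF, a small MAF partner of both factors, at -0.95 ± 0.34 (SE, adjusted p = 0.14), and KEAP1, the adaptor that marks NFE2L2 for degradation, at -0.74 ± 0.28 (SE, adjusted p = 0.155). No companion gene of any list passed an adjusted p of 0.05 in limma.

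**Figure D5:**
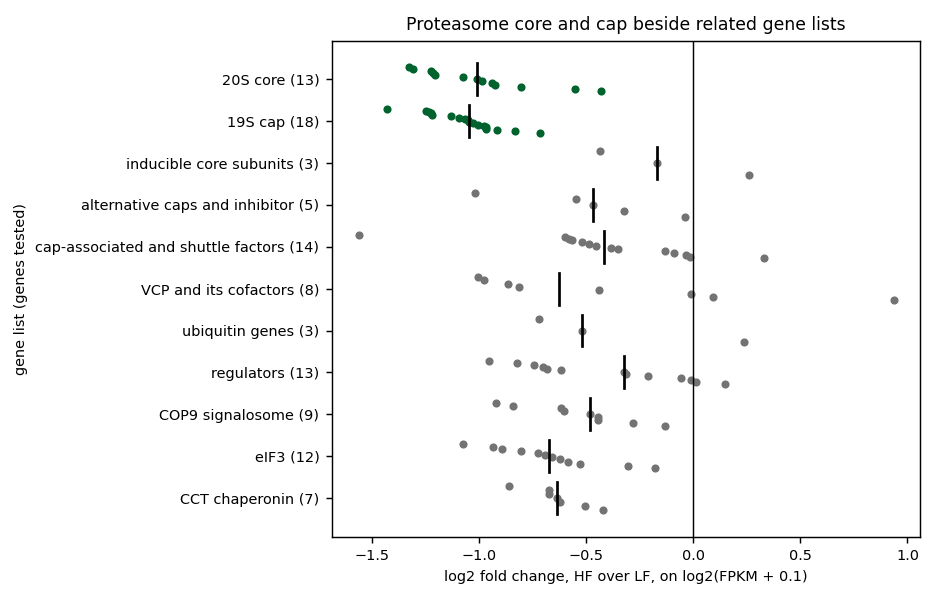
Log2 fold change, HF over LF, of each tested gene of the core, the cap and the related lists, 1 point per gene, with the list's median as a bar. Core and cap medians are at -1.01 and -1.05, and the other medians lie between -0.68 (eIF3) and -0.17 (inducible core subunits).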

How the data were processed

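RNA of LD muscle was sequenced in 1 library per pig (3 HF, 3 LF). Per the methods, the authors ran fastp on the reads, HISAT2 for alignment to Sscrofa11.1, and computed the deposited FPKM per gene and pig with cufflinks. The deposited table also holds the authors' DESeq2 comparison from HTSeq counts (base mean, fold change, standard error, statistic and p-values), which was not used. Whether counting used strand is not given in the sources used here. FPKM carry no read depth per gene, and library read totals were not used here.

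FPKM were compared with limma 3.58.1 (R 4.3.3), eBayes with a mean trend, two-sided, pseudocount 0.1, for genes averaging at least 0.5 FPKM, after the script was tested on simulated data. Tables were summarised with pandas 2.3.3. Values per pig are given for the 3 genes of each role with the smallest p and those with the highest and lowest mean, and for companion lists the 3 with the smallest p; a few companion genes it would name are not reported here. PSMC1 was named after its values were seen. Members and lists were chosen with earlier results of these data known. Promoters and proteins were not used here. P-values set the difference between the groups against the spread between pigs within a group, with that spread adjusted by eBayes over all genes. The pigs, related by the methods, were treated as independent.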

Additional observations from a re-analysis of the deposited data

How the results depend on the processing

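Results were recomputed under other pseudocounts, filters, scalings and fits. No proteasome gene changed sign in any setting. The count lower at an adjusted p under 0.05 was 0 of 36 and became 24 at an adjusted p under 0.10; with 1 pig left out at a time it ranged from 0 to 11, with 11 reached without LF02, where the count over all genes was 124 of 11157, against 4 of 11136 with all pigs. At an adjusted p under 0.10 the count ranged from 0 to 32 with 1 pig left out. The 32 were reached without LF02, where 905 of all 11157 genes (8.11%) were lower. The count was 0 with no filter and with the replicate block, where 0.0964% and 0.242% of all tested genes were lower. Core minus cap ranged from -0.096 to 0.154 with 1 pig left out. Leaving out 1 pig moved the median log2 fold change between -1.16 and -0.82. Scaling to genes under 1000 FPKM, chosen after seeing the data, gave a median of -0.76. It shifted the median of all genes by 0.25, to 0.22. Under this added scaling 28 proteasome genes had every HF pig below every LF pig, against 7.44% of all tested genes. Upper-quartile scaling shifted the median of all genes by 0.16, to 0.13. Each scaling divides a library by 1 factor and so moves all genes nearly alike. The proteasome median relative to all genes, -0.99, was therefore bound to stay nearly the same and does not check the scaling. With a replicate block the median log2 fold change was -1.02. In that fit 32 proteasome genes were lower at an unadjusted p under 0.05 in limma, and the share over all genes was not taken. To look for pairs, the mean of the pig's own group was subtracted from its log2 level of each gene. Between same-numbered HF and LF pigs these deviations correlated at -0.0435, 0.0882 and 0.016, and the pigs were not taken as pairs. FPKM carry no read depth per gene, and 3 pigs per group limit the precision.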

Other observations

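The 19S lid shares its fold with the COP9 signalosome, which removes NEDD8 from cullin ligases, and with the translation initiation factor eIF3. Of 12 eIF3 genes found, all were negative in log2 fold change (median -0.68), 10 had every HF pig below every LF pig, 10 had an unadjusted p under 0.05 and 6 an adjusted p under 0.10 in limma, against 17.1%, 13.8% and 3.49% of all tested genes by these 3 measures. EIF3K measured 112, 99.5 and 95.6 FPKM in HF01 to HF03, against 206, 194 and 185 FPKM in LF01 to LF03, a log2 fold change of -0.93 ± 0.18 (SE, adjusted p = 0.0808). EIF3M and EIF3F had log2 fold changes of -0.89 ± 0.20 (SE, adjusted p = 0.0882) and -0.80 ± 0.19 (SE, adjusted p = 0.0899). All 9 COP9 genes were negative too, the median was -0.48, 5 had an unadjusted p under 0.05 and 5 did not overlap between the groups. GPS1 measured 16.8, 17.5 and 17.8 FPKM in HF01 to HF03, against 26.6, 26.6 and 27.0 FPKM in LF01 to LF03, a log2 fold change of -0.62 ± 0.17 (SE, adjusted p = 0.0992), and COPS3 and COPS8 had -0.84 and -0.92.

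The CCT chaperonin folds actin and tubulin. All 7 genes found were lower at an unadjusted p under 0.05 in limma, against 13.8% of all tested genes. Their median log2 fold change was -0.64. In 5 every HF pig was below every LF pig. That held for 17.1% of all tested genes and for 27.0% of those averaging at least 5 FPKM. CCT2 measured 31.2, 35.2 and 23.8 FPKM in HF01 to HF03, against 66.1, 43.5 and 54.4 FPKM in LF01 to LF03, a log2 fold change of -0.86 ± 0.24 (SE, adjusted p = 0.101), and TCP1 and CCT8 had -0.64 and -0.67. Whether these complexes differ from the proteasome in the size of their difference was not tested.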
